A study of Mus musculus with 2 samples.

Results

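Rab proteins are small GTPases that mark the compartments of the cell and direct the vesicles moving between them. The genes described here are the 58 whose symbol in the deposited tables is Rab followed by a number, with or without a letter and a further number, among 23444 gene symbols in all. Rab-like genes and Rab-binding proteins are not members. They were compared between 2 libraries of mouse bone marrow derived macrophages, cultured cells that arise from precursors in the marrow, of the FVB strain background. The first library came from wild type mice (WT, RON proficient) and the second from RON TK-/- mice (RON deficient), which lack the tyrosine kinase of RON. Labels of both libraries state the same treatment, 72 hours of recombinant interleukin-4 at 10 ng/mL, which is used to drive alternative (M2) activation. The labels do not say whether several mice were pooled, and there was 1 library per group. No difference below therefore has a replicate check, no test was run, and "higher" or "lower" compares these 2 libraries and not the genotypes. WT and RON TK-/- below name the libraries by their labels.

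A Rab protein cycles between a form bound to GTP, which sits on a membrane and recruits effectors, and a form bound to GDP, which is extracted from the membrane by a dissociation inhibitor. Exchange factors (GEFs) switch a Rab on, and GTPase activating proteins (GAPs) switch it off. In macrophages this cycle controls the uptake of particles, the maturation of phagosomes into degrading compartments, the recycling of surface receptors and the secretion of cytokines.

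The libraries were checked before the members were read. Mst1r, which encodes RON, was listed at 0 FPKM in both and so checked neither genotype label. Interleukin-4 marker genes went against the label of WT: Arg1 was at 1.0 FPKM there against 5041 in RON TK-/-, and Chil3 and Retnla were listed at 0 in WT. Inflammatory genes lay the other way, with Tnf at 1262 FPKM in WT against 0.52 in RON TK-/-. Directions therefore hold only for the labels as they stand, and activation state and genotype cannot be told apart. All 8 macrophage markers found in the tables had at least 1 FPKM in both libraries, with summed levels of 4526 FPKM in WT and 6393 in RON TK-/-. All 4 fibroblast markers did too (Col1a1, Col1a2, Dcn and Pdgfra; summed 620 and 721 FPKM). Of 5 dendritic cell, 4 neutrophil, 4 B cell, 3 T cell, 4 mast cell, 4 erythroid and 3 platelet markers found, 0 reached 1 FPKM in a library, and of 3 endothelial markers 1 did, Kdr. The part of fibroblast RNA in the Rab values was not tested.

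Rab transcripts as a whole were close to equal as deposited. The 58 members summed to 1762 FPKM in WT and 1884 in RON TK-/-, which is 0.413% and 0.422% of all FPKM. FPKM is the number of fragments per kilobase of transcript, scaled to library depth, and is thus a level per length. Of the 58 members 39 were detected, meaning at least 1 FPKM in either library. Of these, 4 were at least 2-fold higher in RON TK-/- (Rab3a, Rab40c, Rab4a and Rab19) and 2 at least 2-fold lower (Rab20 and Rab12), where ratios were taken after adding 1 to each FPKM. The remaining 33 lay within 2-fold. Over all 11288 detected genes the shares were 25.6% higher and 8.71% lower, against 10.3% and 5.13% of the detected Rab genes. In bulk RNA, fewer cells of a type and less RNA per cell cannot be told apart.

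The promoters of 4 of the 5 members past 2-fold with at least 5 FPKM in a library are given first, to show the sequence at the start of genes past that threshold. The fifth is Rab4a. These genes and the motifs were chosen after the values were seen. Each window is the 300 bases from 250 before to 50 after the RefSeq start on GRCm38.p6 (mm10), read 5′ to 3′ on the gene's strand. Rab20 lies at chr8:11478591-11478890 (minus strand), Rab12 at chr17:66519621-66519920 (minus), Rab19 at chr6:39381103-39381402 (plus) and Rab40c at chr17:25919665-25919964 (minus). Capitals mark the letters of any motif searched for, as described after the sequences.
Rab20: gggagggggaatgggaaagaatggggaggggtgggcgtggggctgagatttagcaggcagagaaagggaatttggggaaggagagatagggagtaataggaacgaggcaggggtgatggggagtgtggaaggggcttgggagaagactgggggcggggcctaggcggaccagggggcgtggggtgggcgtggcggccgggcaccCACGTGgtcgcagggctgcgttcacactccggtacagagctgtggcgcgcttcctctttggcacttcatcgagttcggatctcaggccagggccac
Rab12: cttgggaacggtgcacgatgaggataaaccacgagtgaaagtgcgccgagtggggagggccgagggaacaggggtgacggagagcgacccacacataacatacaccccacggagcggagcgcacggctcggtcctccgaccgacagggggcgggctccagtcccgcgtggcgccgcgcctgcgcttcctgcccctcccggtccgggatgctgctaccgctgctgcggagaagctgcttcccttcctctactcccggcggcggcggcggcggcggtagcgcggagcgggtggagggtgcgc
Rab19: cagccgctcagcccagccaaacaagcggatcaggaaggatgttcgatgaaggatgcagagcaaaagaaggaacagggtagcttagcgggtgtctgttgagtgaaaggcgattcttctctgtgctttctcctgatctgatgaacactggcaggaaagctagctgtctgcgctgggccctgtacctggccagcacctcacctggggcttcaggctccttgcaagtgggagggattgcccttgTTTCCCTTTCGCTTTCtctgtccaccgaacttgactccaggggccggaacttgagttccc
Rab40c: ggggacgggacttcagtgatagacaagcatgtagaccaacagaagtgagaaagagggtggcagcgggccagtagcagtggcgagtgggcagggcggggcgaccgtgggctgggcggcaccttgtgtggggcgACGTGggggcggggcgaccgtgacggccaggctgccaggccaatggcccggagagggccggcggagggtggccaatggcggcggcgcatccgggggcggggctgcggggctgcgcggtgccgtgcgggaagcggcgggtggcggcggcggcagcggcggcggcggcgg

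The motifs, searched on both strands, were the STAT6-type site (TTC and GAA with 4 bases between them), the interferon response core (GAAA, any 2 bases, GAAA), the NF-kB consensus, the E-box CACGTG and the hypoxia response core ACGTG, which every CACGTG also contains. In the Rab20 window CACGTG stood 46 bases before the start. Rab19 held overlapping matches of the interferon response core 10 and 4 bases before its start. In Rab40c there was an ACGTG 118 bases before the start, and Rab12 held no match in this window. Among 48 members with an entry in the RefSeq table, 3 held the STAT6-type site, 1 the interferon core, 2 the NF-kB consensus, 6 CACGTG and 13 ACGTG. Over all 32851 promoters of that length the shares were 6.95%, 3.44%, 4.51%, 7.15% and 19.6%, and over the 27025 genes in that table they were 8.01%, 3.99%, 5.14%, 8.09% and 21.8%. Of the 48 members they were 6.25%, 2.08%, 4.17%, 12.5% and 27.1%. A match describes letters in the window and no binding was measured. The transcript listed by the authors starts at the RefSeq base for Rab12 and Rab40c, 141 bases downstream of it for Rab20 and 75 downstream for Rab19.

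**Figure D1:**
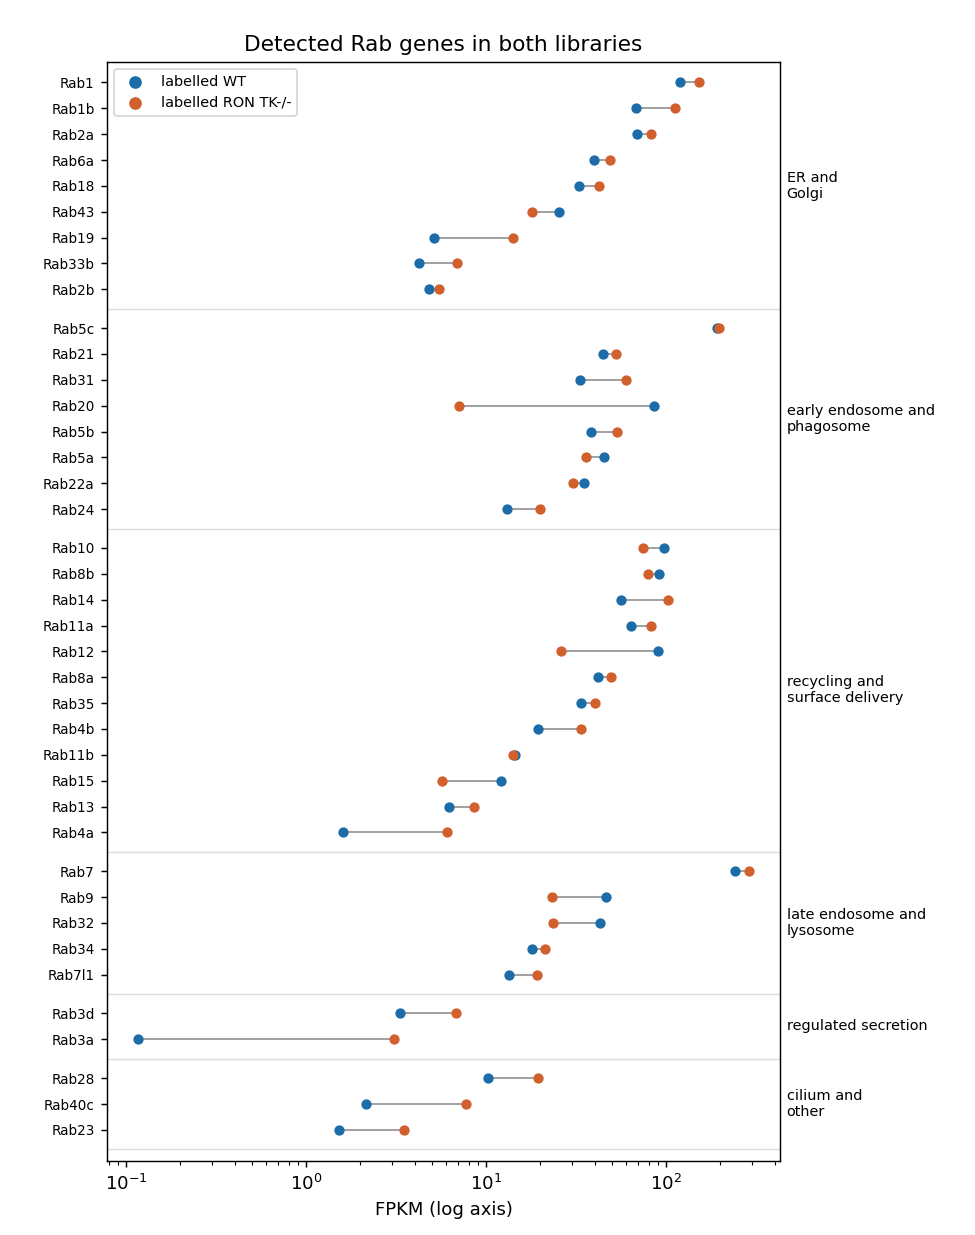
FPKM (log axis) of the 39 detected Rab genes in the library labelled WT (blue) and the library labelled RON TK-/- (orange), grouped by textbook role; each point is 1 library and grey lines join the values of a gene. Most pairs lie close together, while Rab20 and Rab12 stand out to the left in RON TK-/- and Rab3a, Rab4a, Rab40c and Rab19 to the right.

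Levels covered a wide range, and the most abundant members were shared. Rab7 was first in both libraries with 241 FPKM in WT and 290 in RON TK-/-, followed in both by Rab5c (190 and 196) and Rab1 (119 and 152). These 3 genes made up 31.2% of Rab FPKM in WT and 33.9% in RON TK-/-. The order below them differed, with Rab10, Rab8b, Rab12 and Rab20 next in WT, and Rab1b, Rab14, Rab2a and Rab11a next in RON TK-/-. Levels between genes depend on the listed transcript. The Rab7 row is 624 bases long, which is its coding length alone, while the matched GENCODE transcript has 2159 bases. Rab20 is listed with 722 bases against 1392 in GENCODE. Differences between libraries use the same model on both sides.

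The median log2 ratio of the detected Rab genes was 0.29, where the median of all detected genes was 0.57. Because the second value is not 0, the sign of a small ratio depends on scaling. As deposited, 28 of the 39 members were above 0, and so were 8629 of all 11288 detected genes. Multiplying RON TK-/- values by 0.632 brings the median ratio of all detected genes to 0. After it 12 members were above 0, against 5644 of all detected genes, a number the rescaling sets. The 16 members that turned were Rab1, Rab2a, Rab2b, Rab5b, Rab5c, Rab6a, Rab7, Rab7l1, Rab8a, Rab11a, Rab13, Rab18, Rab21, Rab24, Rab34 and Rab35. With that rescaling 1 member, Rab3a, was at least 2-fold higher and 7 were at least 2-fold lower, namely Rab20, Rab12, Rab9, Rab15, Rab32, Rab43 and Rab10. Over all detected genes the rescaled shares were 8.42% higher and 13.9% lower. The middle 50% of Rab ratios spanned 0.85 log2 units and that of all detected genes 0.96.

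**Figure D2:**
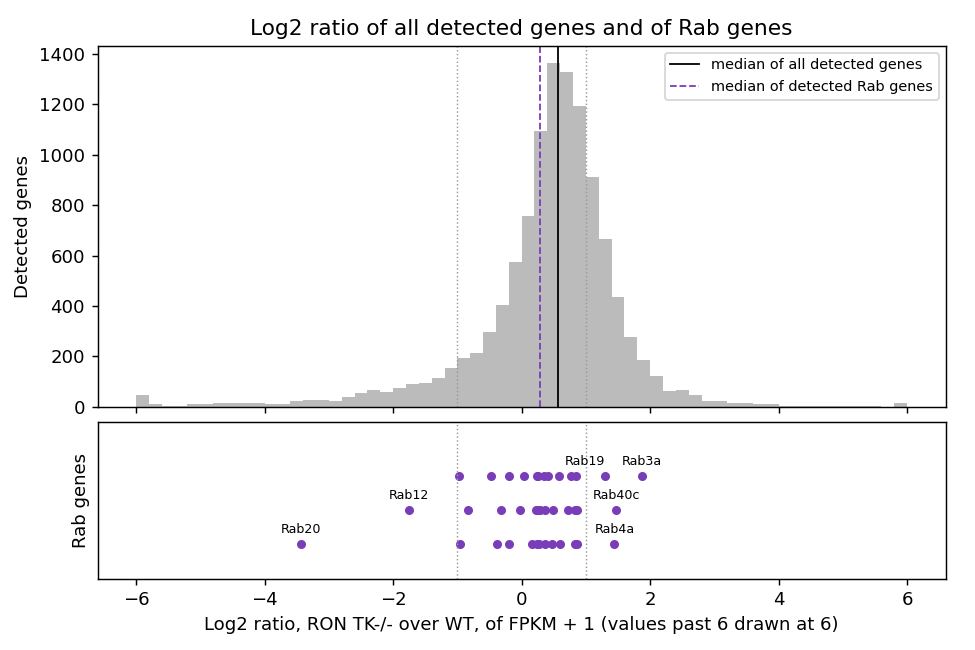
Upper panel: number of detected genes by log2 ratio of FPKM + 1, RON TK-/- over WT, with the median of all detected genes (0.57, solid) and of detected Rab genes (0.29, dashed). Lower panel: 1 point per detected Rab gene, set at 3 heights for legibility only; dotted lines mark 2-fold, and 33 of 39 points lie between them.

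Rab genes of the endoplasmic reticulum and Golgi, the entry of the secretory route, were detected for 9 of 12 members. As deposited, 8 of the 9 were above 0, as were 8629 of all 11288 detected genes, and 1 of them (Rab19) was at least 2-fold higher. Their summed level was 369 FPKM in WT and 484 in RON TK-/-. After rescaling, 5 of those 8 lay below 0. Rab1 and Rab1b, which drive transport from the endoplasmic reticulum to the Golgi, stood at 119 and 67.7 FPKM in WT and at 152 and 112 in RON TK-/-. Rab1b had the larger log2 ratio (0.72 against 0.34). Rab2a, which acts at the Golgi and in fusion with lysosomes, was at 68.7 and 82.4 FPKM, and its relative Rab2b at 4.78 and 5.48. Rab18, found on lipid droplets and the endoplasmic reticulum, was at 32.8 FPKM in WT and 42.4 in RON TK-/-.

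Rab19, a Golgi Rab, had 5.16 FPKM in WT and 14.1 in RON TK-/-, or 2.74 times the WT level on the plain scale. It was the most abundant of the 4 members that were at least 2-fold higher. Rab33b, which binds the autophagy protein Atg16l1, had 4.25 and 6.91 FPKM. Rab43 was the member of this group lower in RON TK-/-, at 18.0 FPKM against 25.5. It has 4 listed transcripts, of which the longest held 86.0% of the gene in WT and 83.2% in RON TK-/-.

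Rab6a, which carries retrograde traffic through the Golgi, was at 39.6 FPKM in WT and 48.5 in RON TK-/-. It has a pair of listed transcripts of equal length, 3214 bases. The first was at 26.3 FPKM in WT and 24.3 in RON TK-/-, and the second at 13.3 and 24.2. The second transcript thus made up 33.5% of the gene in WT and 49.9% in RON TK-/-, and it alone was higher in RON TK-/-. Dividing reads of 50 bases between such similar transcripts is an estimate, and its error is not given in the tables.

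Early endosome and phagosome members were detected for 8 of 9 genes and held the lowest ratio of the family. Rab20, which takes part in phagosome maturation, stood at 85.7 FPKM in WT and 7.04 in RON TK-/-. Its log2 ratio was -3.43 on the FPKM + 1 scale, and the plain ratio of the levels was 12.2-fold in favour of WT. These levels rest on about 3704 and 356 estimated reads, and Rab20 ranked 7 in the family in WT but was outside the first 10 in RON TK-/-. The gene lies on chromosome 8 from 11453977 to 11478499, and its matched transcript has 2 exons.

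Rab5a, Rab5b and Rab5c drive the fusion of early endosomes and lay on both sides of 0 as deposited. Rescaled, their log2 ratios were all below 0, at -0.96, -0.17 and -0.61. Rab5a was at 45.1 FPKM in WT and 35.9 in RON TK-/-, and Rab5b at 38.0 and 53.4, so that Rab5a led in WT and Rab5b in RON TK-/-. Rab5c held 69.6% of the summed Rab5 level in WT and 68.7% in RON TK-/-, and that sum was 274 and 286 FPKM. Rab31, which works between the trans-Golgi and endosomes, was higher in RON TK-/- (60.1 against 33.3 FPKM, log2 ratio 0.83), and it stayed above 0 after rescaling. Rab21, linked to integrin uptake, was at 44.4 and 52.8 FPKM. Rab22a of early endosomes had 34.8 and 30.2 FPKM. Rab24, linked to autophagy, was at 13.1 FPKM in WT with a log2 ratio of 0.58.

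Recycling and delivery to the surface was the group with the most detected members, 12 of 13. Its summed level was nearly equal as deposited (527 FPKM in WT and 522 in RON TK-/-). Within this sum individual members lay on both sides, with 7 above and 5 below 0 as deposited. Of all 11288 detected genes 8629 were above 0. Rab12, which directs membrane proteins from recycling endosomes to lysosomes, had 90.4 FPKM in WT and 26.2 in RON TK-/-. That is a log2 ratio of -1.75 and the second lowest of the family. It spans 66494512 to 66519670 on chromosome 17 with 6 exons.

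Rab14, which links the Golgi with endosomes, had the opposite order, 56.3 FPKM in WT against 102 in RON TK-/- (log2 ratio 0.85). Among the 25 members with at least 20 FPKM in a library it had the highest ratio, so none of these 25 was 2-fold higher. Rab20 and Rab12 of the same 25 were lower, and Rab20 reached 20 FPKM only in WT. Over all detected genes 25.6% were 2-fold higher and 8.71% lower. The shares among all genes of at least 20 FPKM are not given here. Rab4a and Rab4b, of the fast recycling route, were both higher in RON TK-/-. Rab4a was at 1.61 and 6.09 FPKM (log2 ratio 1.44), and Rab4b at 19.3 and 33.6 (0.77). Rab4b held 92.3% of the pair's sum in WT and 84.7% in RON TK-/-.

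Rab11a and Rab11b of the slow recycling endosome differed little, at 63.8 and 14.4 FPKM in WT and 82.4 and 14.1 in RON TK-/-. Rab8a and Rab8b, which serve delivery to the surface, had 41.6 and 90.9 FPKM in WT and 49.2 and 79.5 in RON TK-/-. Rab10, which moves receptors and transporters to the plasma membrane, was at 96.7 FPKM in WT and 74.1 in RON TK-/-. Rab35, another recycling Rab, was at 33.5 and 40.3, and Rab13, best known from tight junctions, at 6.18 and 8.59. Rab15, an endosomal Rab, had 12.1 FPKM in WT and 5.64 in RON TK-/-. Its log2 ratio of -0.98 lay just inside 2-fold on the FPKM + 1 scale, although the plain ratio of its levels was 2.14.

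**Figure D3:**
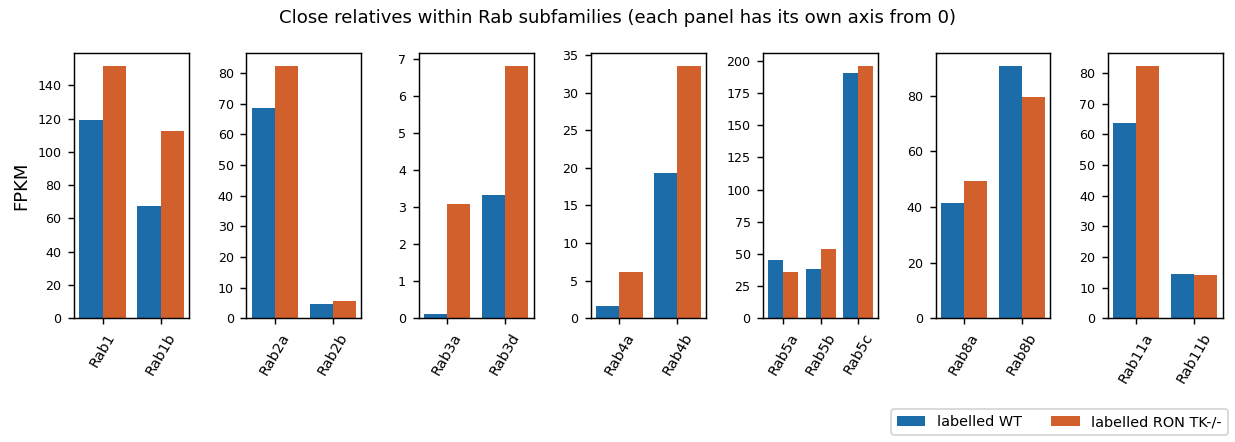
FPKM in the library labelled WT (blue) and the library labelled RON TK-/- (orange) for Rab subfamilies with more than 1 detected member, 1 library per bar and no error bars, with a separate axis from 0 in each panel. Rab5a leads Rab5b in WT and Rab5b leads in RON TK-/-; Rab8a is higher and Rab8b lower in RON TK-/- as deposited, with Rab8a below 0 after rescaling, and Rab3a is at 0.12 FPKM in WT.

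Late endosome and lysosome Rab genes were detected for 5 of 11 members, and all 5 lay within 2-fold as deposited (rescaled, Rab9 and Rab32 did not). Rab7, required for fusion of late endosomes and phagosomes with lysosomes, was at 241 FPKM in WT and 290 in RON TK-/-, a log2 ratio of 0.27 that was below 0 after rescaling. Rab9, which returns receptors from late endosomes to the trans-Golgi, was at 46.3 and 23.2 FPKM (log2 ratio -0.96). Rab32, which serves lysosome-related organelles and mitochondria, was at 42.7 and 23.4 FPKM (-0.84). Rab34, involved in lysosome positioning, was at 18.0 and 21.1 FPKM, and Rab7l1, also named Rab29 and known as a partner of the kinase LRRK2, at 13.4 and 19.2.

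Members of regulated secretion were mostly not detected, with 2 of 9 above 1 FPKM. Rab3d, a Rab of secretory granules, was at 3.32 FPKM in WT and 6.82 in RON TK-/-. Rab3a, known from synaptic vesicles, was at 0.12 and 3.08 FPKM, or about 10.1 and 300 estimated reads (log2 ratio 1.87). The highest ratio of the family therefore belonged to a gene with a low level in both libraries. Exons of Rab3a overlap those of Mpv17l2 on the opposite strand, and Mpv17l2 was at 19.1 and 21.6 FPKM. No strand setting was given in the sources used here, and reads of such overlapping genes cannot be told apart. The other overlapping partners on the opposite strand were Prelid1 for Rab24 (240 and 319 FPKM), Mrpl48 for Rab6a (15.9 and 21.5), Tox4 for Rab2b (19.9 and 17.7), and the low genes Rab10os, Pp2d1, Gm5577 and 8030443G20Rik for Rab10, Rab5a, Rab7 and Rab3b.

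Of the remaining 4 members, which act at the cilium or elsewhere, 3 were detected and all 3 were above 0 with and without rescaling. Of all 11288 detected genes 8629 were above 0 as deposited and 5644 after rescaling. Rab28 was at 10.3 FPKM in WT and 19.5 in RON TK-/-. Rab40c, which has a SOCS box and joins a ubiquitin ligase, was at 2.16 and 7.76 (log2 ratio 1.47). Rab23, an inhibitor of hedgehog signalling at the cilium, was at 1.52 and 3.47. On the plain scale Rab40c differed by 3.60-fold and Rab4a by 3.79-fold. The matched transcripts have 7 exons for Rab40c (chromosome 17, 25882114 to 25919714), 8 for Rab4a (chromosome 8, 123805996 to 123835291) and 4 for Rab19 (chromosome 6, 39381428 to 39390379).

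The 19 members below 1 FPKM in both libraries were Rab3b, Rab3c, Rab6b, Rab9b, Rab17, Rab25, Rab26, Rab27a, Rab27b, Rab30, Rab33a, Rab36, Rab37, Rab38, Rab39, Rab39b, Rab40b, Rab42 and Rab44. They reached at most 0.97 FPKM in WT (Rab37) and 0.90 in RON TK-/- (Rab42). Rab42 was listed at 0 in WT, where 3 reads would give 0.0683 FPKM, and had about 45.0 estimated reads in RON TK-/-. Rab3b, Rab3c, Rab9b and Rab25 were also listed at 0 in WT, each with at most 13.0 estimated reads in RON TK-/-. Rab39b had about 13.5 and 172 estimated reads, and Rab33a about 9.88 and 62.8. Rab27a, a regulator of granule and exosome release, was at 0.29 and 0.32 FPKM, and Rab38, the closest relative of Rab32, at 0.50 and 0.86. These floors and read estimates cover counting error only.

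Lists of Rab partners had higher medians than the Rab genes as deposited, and how many passed 2-fold depended on scaling; no test of lists was run. Over all detected genes 25.6% were 2-fold higher and 8.71% lower, and after rescaling 8.42% and 13.9%. Detection in either library let genes enter through the library where they were higher. Among 2-fold higher GAPs and exchange factors, Tbc1d4, Dennd2c and Rin1 were under 1 FPKM in WT. The GAP list was made largely of genes named Tbc1d, and not every one is an established GAP of Rab proteins. Of its 37 detected genes 15 were 2-fold or more higher in RON TK-/- and 0 were lower. The median log2 ratio of this list was 0.89, and after rescaling 6 were higher and 2 lower. As shares that is 40.5% higher as deposited, and 16.2% higher and 5.41% lower after rescaling. Tbc1d14 was at 4.86 FPKM in WT and 37.3 in RON TK-/-, Tbc1d4 at 0.30 and 8.08, Tbc1d16 at 1.27 and 11.8, and Tbc1d31 at 1.18 and 7.39. Tbc1d14 is a regulator of autophagy, and Tbc1d4 is known as the insulin-responsive GAP of Rab10 and its relatives. Among exchange factors 8 of 34 passed 2-fold on the higher side and 3 on the lower, around a median of 0.67 (rescaled 3 and 5). These shares, 23.5% and 8.82% (rescaled 8.82% and 14.7%), were near those of all detected genes. Rab3il1, which activates Rab3a and Rab8 proteins, was at 11.7 and 96.0 FPKM, and Dennd4c, an exchange factor of Rab10, at 4.02 and 45.5. Rabif, a chaperone of Rab proteins, stood at 2.92 and 8.61. Rabgef1, the Rab5 exchange factor also called Rabex-5, had the opposite order, 22.2 FPKM in WT and 8.52 in RON TK-/-, and the other lower genes were Dennd4a and Rin2.

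Effectors, the proteins that read the GTP-bound Rab, were at least 2-fold higher for 14 of 35 detected genes and lower for 2, with a median of 0.73 (rescaled 5 and 4). Of these 14, Ehbp1, Rab11fip3, Rilp and Rilpl1 were under 1 FPKM in WT and were detected only through RON TK-/-. The share 2-fold higher was 40.0% against 25.6% of all detected genes as deposited, but 14.3% against 8.42% after rescaling, with 11.4% against 13.9% lower. Zfyve20, the Rab4 and Rab5 effector rabenosyn-5, was at 2.11 FPKM in WT and 17.7 in RON TK-/-, and Mical1 at 2.47 and 12.9. Among detected Rab11 effectors named Rab11fip, only Rab11fip1 was lower in RON TK-/-, at 34.4 and 1.86 FPKM. Rab11fip5 was higher, at 9.23 and 52.9. So were the low genes Rab11fip3 (0.50 and 3.16) and Rab11fip2 (0.57 and 1.11). The other lower effector was the phosphatase Inpp5b. The HOPS and CORVET complexes tether membranes for Rab7 and Rab5. The list of their genes also held relatives outside both complexes, Vps33b and Vipas39. Of its 10 genes 4 were higher and 0 lower (rescaled 1 and 0, or 10.0% higher), with a median of 0.94. These 4 were Vps39 (5.28 and 15.1 FPKM), Vps18 (8.20 and 20.4), Vps33b (2.16 and 6.64) and Tgfbrap1 (2.25 and 9.08).

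The general machinery of the Rab cycle lay within 2-fold on the FPKM + 1 scale for all 7 genes measured, with a median of 0.56. By the same measure 7415 of all 11288 detected genes lay within 2-fold. The median of all detected genes was 0.57. Rabggta was nearest to the threshold on the FPKM + 1 scale, with a log2 ratio of 0.97. Its plain ratio was past 2, and so was that of Chml (0.51 FPKM in WT and 1.52 in RON TK-/-). The dissociation inhibitor Gdi2 was at 112 FPKM in WT and 166 in RON TK-/-. The prenyltransferase subunit Rabggta was at 4.48 and 9.70 FPKM, and its partner Rabggtb at 20.6 and 36.7. Among 2 kinases and 1 phosphatase of Rab proteins, Lrrk1 was at 1.07 and 5.46 FPKM, Lrrk2 at 3.47 and 2.41, and the phosphatase Ppm1h at 5.94 and 11.2. Of 4 detected Rab-like genes 1, Rabl6, was past 2-fold (8.15 and 21.0 FPKM) as deposited and 0 after rescaling. The share of all detected genes past 2-fold was 34.3% as deposited (25.6% were higher) and 22.3% after rescaling.

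The share past 2-fold in either direction was 15.4% of detected Rab genes, 23.8% of Ras genes and 33.3% of Arf, Arl and Sar genes as deposited. That share over all detected genes was 34.3% as deposited and 22.3% after rescaling. For the 3 families the rescaled shares were 20.5%, 19.0% and 37.5%, so the order of Rab and Ras genes turned. This describes 3 families in these 2 libraries, with no test of the difference. Higher and lower members numbered 3 and 2 of 21 for Ras genes and 5 and 3 of 24 for Arf, Arl and Sar genes (rescaled 1 and 3, and 3 and 6). Their median log2 ratios were close, at 0.29 for Rab, 0.31 for Ras and 0.25 for Arf, Arl and Sar genes, and all 3 lay under the median of all detected genes. Outside the Rab family, the ratio farthest from 0 belonged to Arl11 among Arf, Arl and Sar genes and to Gem among Ras genes. Arl11 was at 57.2 FPKM in RON TK-/- with a log2 ratio of 3.73, and the Ras-related Gem at 19.9 in WT and 1.31 in RON TK-/-.

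**Figure D4:**
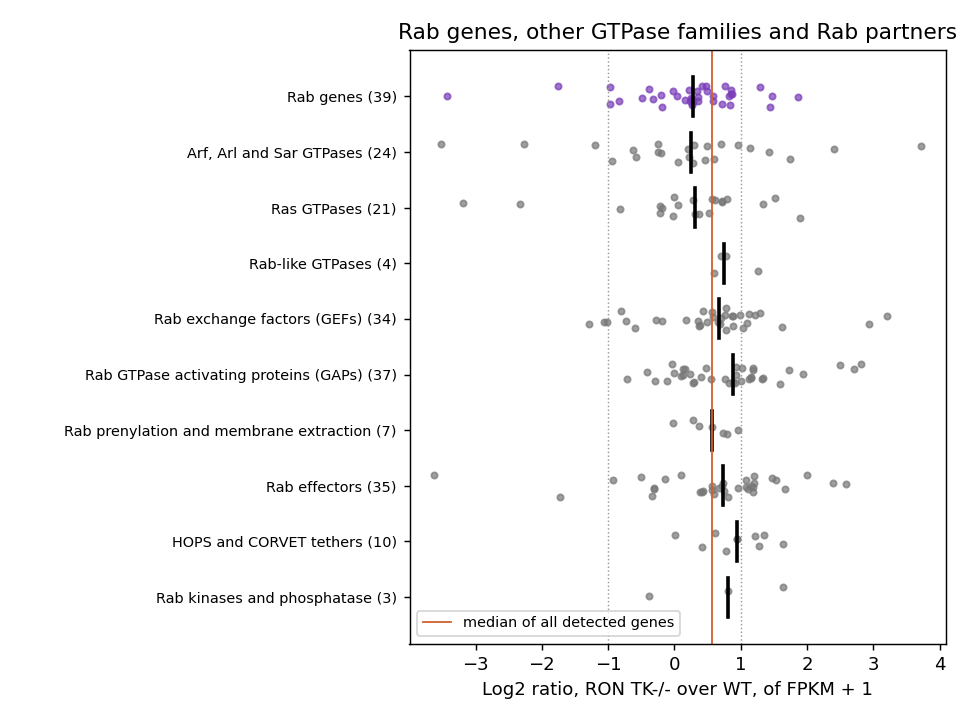
Log2 ratio of FPKM + 1, RON TK-/- over WT, for each detected gene of the Rab family (purple), other GTPase families and Rab partners (grey), with the number of detected genes in brackets; black bars are list medians, the orange line is the median of all detected genes (0.57) and dotted lines mark 2-fold. Points are jittered vertically. Rab genes lie between -3.43 and 1.87, and the GAP, effector and tether lists have medians above the orange line.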

How the data were processed

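RNA of 2 macrophage libraries was measured from single reads of 50 bases of a TruSeq library, per the labels' protocols. The authors deposited 1 table per library with an FPKM value per RefSeq transcript and the coverage, a mean read depth per base, with column names as Cufflinks writes them, per the file headers. Tool DESeq and build mm10, with no role, come from the submitters' processing notes. For the aligner, annotation release and strand setting nothing was given in the sources used here. FPKM of rows sharing a symbol were summed (69 rows for 58 Rab genes). The ratio was log2 of (FPKM + 1) in RON TK-/- over (FPKM + 1) in WT. The pseudocount understates differences of low genes. A gene was called detected at 1 FPKM or more in either library, and 2-fold was the threshold. Reads were estimated as coverage times length over read length (about 5.42e+07 in WT and 6.19e+07 in RON TK-/- in all); these are not counts. Locus starts count from 0 in the tables, and 1 was added. All 69 transcripts matched GENCODE M21, and 48 members had a RefSeq promoter (2 by a newer symbol). Protein sequences were not used here. Values were named for every detected member, and for up to 4 genes per partner list with at least 5 FPKM and the largest absolute ratio; others were named to complete small counts or in passing, after their values were seen. Members, lists and roles were chosen with earlier results of these data known. The procedure was tested on simulated data. Python 3.11.15, pandas 2.3.3, numpy 2.4.6 and matplotlib 3.10.9 were used. Alternatives were 10 other settings. A planned gene list and a motif are not reported here.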

Additional observations from a re-analysis of the deposited data

How the results depend on the processing

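The spread between animals or cultures is unknown with 1 library per group. Members under 1 FPKM in both libraries rest on at most about 172 estimated reads (Rab39b in RON TK-/-). The detected Rab3a had about 10.1 in WT. As reported, there were 4 members at least 2-fold higher, 2 lower and a median log2 ratio of 0.29. With RON TK-/- rescaled to a median ratio of 0, the counts were 1 higher and 7 lower and the median was reversed to -0.36; the cause is the rescaling itself, which lowers every ratio. A pseudocount of 5 gave 0 higher, as it shrinks low genes, and Rab19, Rab4a, Rab40c and Rab3a were then within 2-fold. A pseudocount of 0.1 gave 6 higher and 3 lower, adding Rab23, Rab3d and Rab15. In TPM the counts were 7 higher and 4 lower among 45 detected members. A threshold of 1.5-fold gave 12 higher and 5 lower, and a threshold of 4-fold 0 higher and 1 lower, Rab20. Counts over all detected genes moved with the settings too. Of 11288 genes 2890 were higher and 983 lower as reported, 5519 and 1408 at 1.5-fold, and 419 and 463 at 4-fold. With a pseudocount of 0.1 they were 3929 and 1111, with one of 5 they were 983 and 691, and in TPM 3431 and 1207 of 12299. The signs of 16 members turned with median rescaling, 1 in TPM and 1 with the most abundant row only (Rab6a). No minimum, a minimum of 5 FPKM, the most abundant row and estimated reads each kept 3 or 4 members higher and 2 lower. Rab20 and Rab12 were past 2-fold under all settings run, except Rab12 at 4-fold. No paired analysis was possible because each group has 1 library.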
